A study of Mus musculus with 5 samples.

Results

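Fetal-like regenerative epithelium genes were followed in RNA-Seq of colon tumors, as 8 genes chosen by symbol: Ly6a, Clu, Anxa1, Anxa3, Anxa8, Msln, Plaur and F3. Each symbol matched 1 gene of the 52143 in the deposited table, so 8 of 8 were found, and all 8 were among the 10338 genes tested. The tumors came from female mice, aged 8 weeks when the protocol began, that received tamoxifen for 5 days from a 10 mg/mL stock, the carcinogen azoxymethane (AOM) at 10 mg/kg, and repeated 5-day cycles of 2.0% dextran sodium sulfate (DSS), which injures the colon lining, with 14 days of recovery. Tumors were collected on day 87. The Control group (n = 2, replicates 1 and 4) carried the tamoxifen-inducible Cre recombinase driven by the villin promoter, which is active in the intestinal epithelium. The SIGLEC12 group (n = 3, replicates 2, 3 and 4) were littermates that carried the same Cre and 1 floxed allele of a human SIGLEC12 knock-in at ROSA26, from which Cre induces the lectin Siglec-XII. The knock-in is driven by the ubiquitous CAG promoter once Cre has acted, and mice have no SIGLEC12 gene of their own. The transgene matched no symbol in the table, so the labels were not checked against its expression.

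After injury, the intestinal epithelium can leave its homeostatic program for a state that resembles fetal gut epithelium, in which Sca-1 (Ly6a), clusterin (Clu) and several annexins are made while crypt stem cell genes recede. The state is known from recovery after DSS and from colitis-associated tumors, and the transcriptional co-activators YAP and TAZ, which act with TEAD factors, are among its known drivers, often together with AP-1 factors. The members fall into surface proteins with a lipid anchor (Ly6a, Msln and the urokinase receptor Plaur), a secreted chaperone (Clu), calcium-dependent membrane-binding proteins (Anxa1, Anxa3 and Anxa8) and the receptor that starts coagulation (F3, tissue factor).

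The promoters of F3, Plaur and Anxa1 are shown because each held a match to an AP-1 or TEAD motif, the factor families named above. They are RefSeq promoters on GRCm38.p6, from 250 bases before to 50 bases after the RefSeq start, read 5' to 3' on the strand of the gene. In the GENCODE coordinates given below, Anxa1 starts at 20390944 on its minus strand, so its window lies inside that span. Of the 8 members, 4 had an entry in the promoter table used. Capitals mark the AP-1 motif TGANTCA in F3 and Plaur and the TEAD motif GGAATG in Anxa1, where it lies on the opposite strand and reads CATTCC.
F3 (chr3:121723287-121723586, plus strand): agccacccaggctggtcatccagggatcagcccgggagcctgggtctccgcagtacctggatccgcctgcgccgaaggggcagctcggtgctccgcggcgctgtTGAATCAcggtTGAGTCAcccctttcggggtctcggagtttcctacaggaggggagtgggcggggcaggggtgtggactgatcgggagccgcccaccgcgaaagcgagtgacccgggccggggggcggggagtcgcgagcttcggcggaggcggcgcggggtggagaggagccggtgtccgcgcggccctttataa
Plaur (chr7:24462233-24462532, plus strand): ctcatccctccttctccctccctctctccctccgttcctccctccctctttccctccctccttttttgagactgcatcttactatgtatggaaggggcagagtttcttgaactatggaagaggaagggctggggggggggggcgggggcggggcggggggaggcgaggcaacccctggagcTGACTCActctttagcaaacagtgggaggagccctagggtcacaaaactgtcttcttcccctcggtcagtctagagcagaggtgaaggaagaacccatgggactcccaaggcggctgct
Anxa1 (chr19:20390622-20390921, minus strand): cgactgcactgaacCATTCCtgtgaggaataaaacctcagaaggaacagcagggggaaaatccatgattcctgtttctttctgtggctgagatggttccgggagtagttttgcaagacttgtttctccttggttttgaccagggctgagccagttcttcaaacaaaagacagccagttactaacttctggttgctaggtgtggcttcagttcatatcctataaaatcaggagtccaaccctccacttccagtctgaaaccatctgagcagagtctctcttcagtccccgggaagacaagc
F3 held 2 AP-1 matches, at positions 105 and 116 of its 300 bases, and Plaur held 1, at position 182. Anxa1 held 1 TEAD match, at position 15. Both strands were searched, no match overlapped another, and the promoter of Anxa8 held 0 matches to either motif. Over all 32851 promoters of the table, 7.81% held the AP-1 motif and 14.7% the TEAD motif. None of the 4 promoters held the STAT motif TTCNNNGAA or the heat shock motif GAANNTTC, which 8.30% and 7.86% of all promoters held. A match describes the letters of this window and is not a bound site.

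The samples differed in composition before any of the 8 genes was compared. Levels are TPM, a length-adjusted share of all transcripts in a sample, and are given on the log2(TPM + 1) scale unless TPM is named. Protein-coding genes took 5.70% and 6.73% of the TPM total in Control replicates 1 and 4, and from 8.75% to 9.72% in SIGLEC12, so that 87.2% of all genes tested were higher on average in SIGLEC12 and their median log2 fold change was 0.38. Fold changes of the 8 genes are therefore also given after the samples were rescaled to the same protein-coding total. The median over all genes tested was 0.01 there. Fold changes of related genes are as deposited unless rescaling is named. Control replicate 1 stood apart. Its 16 squamous epithelium markers, which include the keratins Krt5 and Krt14, summed to 3232 TPM, against 809.1 in Control replicate 4 and from 615.1 to 1170 in SIGLEC12. Its 12 columnar epithelium markers, such as Epcam and Krt8, summed to 345.5 TPM, against 998.5 in Control replicate 4 and from 1223 to 1859 in SIGLEC12. All samples thus held columnar epithelium, as the colon label says, and squamous epithelium as well. In bulk tumor tissue, fewer cells of a type and less RNA per cell cannot be told apart. The read depth behind each value cannot be had from TPM.

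**Figure D1:**
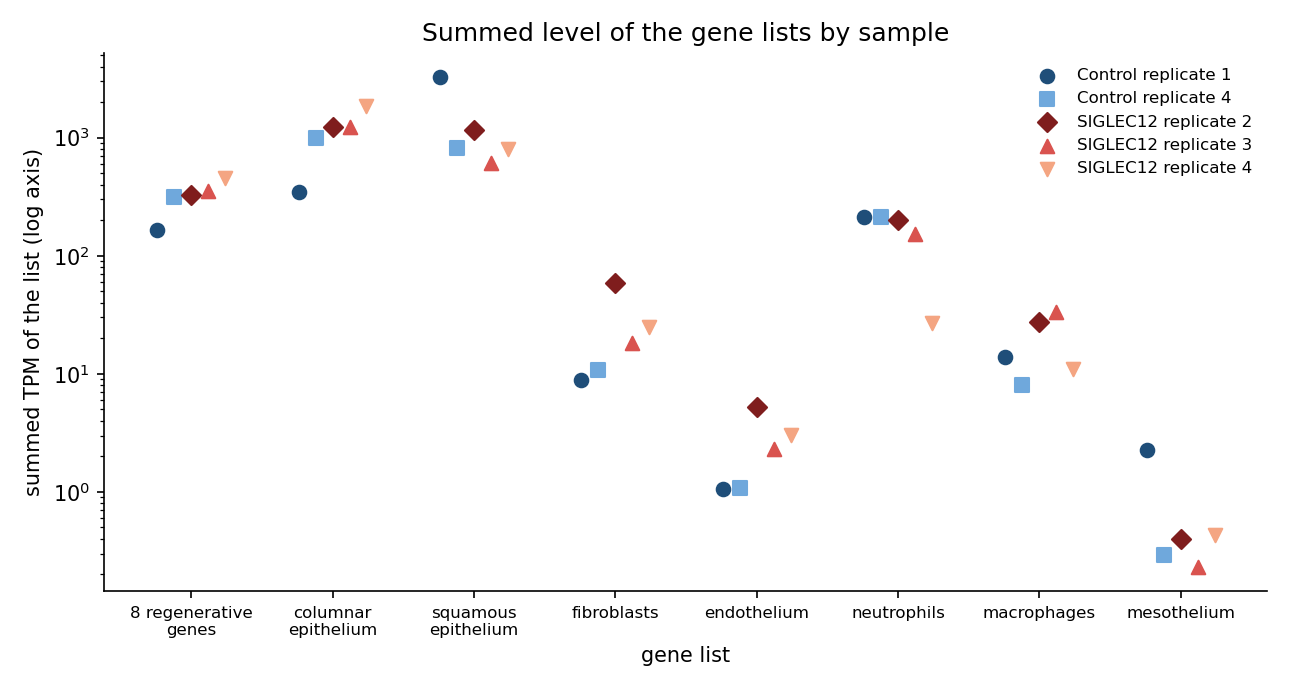
Summed TPM of the 8 regenerative genes and of 7 marker lists (y axis, log scale) in each of the 5 samples (colors and shapes). Control replicate 1 had the highest squamous sum, 3232 TPM, and the lowest columnar sum, 345.5 TPM, and the sum of the 8 regenerative genes was lowest there too, at 164.8 TPM.

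Among the 8 genes, levels spanned more than 2 orders of magnitude. Anxa1 was the highest, with a mean of 157.9 TPM over the 5 samples, and ranked between 22 and 90 among 21966 protein-coding genes. Ly6a followed at 57.0 TPM and Anxa8 at 52.9 TPM, a pair whose order turned between samples: Anxa8 was above Ly6a in both Control samples, narrowly so in replicate 4, and below it in all 3 SIGLEC12 samples. Clu at 18.5 TPM, Anxa3 at 16.1 TPM and F3 at 13.4 TPM formed a middle group whose ranges overlapped. Plaur had a mean of 6.16 TPM. Msln was near the detection limit at 0.64 TPM. The summed TPM of the 8 genes was 164.8 and 315.8 in Control and 327.4, 351.9 and 452.4 in SIGLEC12. Control replicate 1 was the lowest of the 5 samples for 6 of the 8 genes, and SIGLEC12 replicate 4 the highest for 6.

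**Figure D2:**
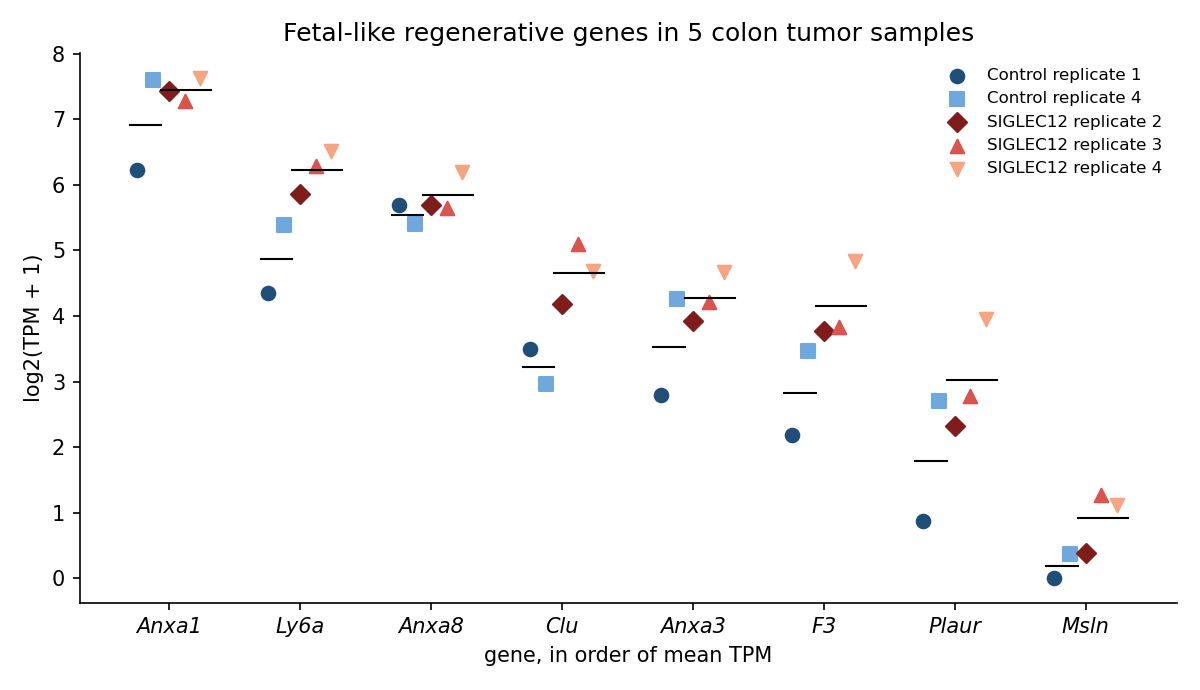
Level of each of the 8 genes as log2(TPM + 1) (y axis) in the 5 samples (points), with genes ordered by mean TPM (x axis) and black lines at the group means. Ly6a, Clu and F3 were higher in all 3 SIGLEC12 samples than in both Control samples, whereas Anxa8 stayed between 5.40 and 6.19.

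The comparison of SIGLEC12 with Control asked how epithelial Siglec-XII alters the tumor transcriptome. All 8 genes were higher on average in SIGLEC12, with a median log2 fold change of 0.99. None passed the threshold of a Benjamini-Hochberg adjusted p under 0.05 and at least 2-fold by limma, and neither did any of the 10338 genes (0%). With 2-fold or more and an unadjusted p no higher than 0.05, 3 of the 8 were higher (Ly6a, Clu and F3) and 0 were lower, against 3.97% and 0.445% of all genes tested. The same 3 passed on the unadjusted p alone, as did 34.3% of all genes. The groups did not overlap, with SIGLEC12 higher, for 4 of the 8 (Ly6a, Clu, F3 and Msln), against 54.1% of all genes, and with SIGLEC12 lower for 0, against 1.67%. After rescaling, 0 of the 8 passed the unadjusted threshold, against 0.368% of all genes as higher and 1.37% as lower. Ly6a and Clu, 2 of the 8, still had an unadjusted p under the limit (10.8% of all genes) but changed less than 2-fold, and for the same 2 the groups did not overlap, with SIGLEC12 higher (15.6% of all genes) and for 0 with it lower (16.8%). The median of the 8 genes was then 0.72, with 6 higher and 2 lower on average. Without Control replicate 1, 1 of the 8 passed the unadjusted threshold as higher, Clu, against 1.38% of all genes (15.8% on the p alone), and 0 as lower, against 1.15%. The remaining Control sample then lay below all 3 SIGLEC12 samples for 5 of the 8 (58.7% of all genes) and above them for 0 (8.75%). Msln entered the test through its SIGLEC12 samples alone, so these counts and medians describe the genes and support nothing further.

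Clu encodes clusterin, a secreted chaperone and the marker of revival stem cells in regenerating gut (ENSMUSG00000022037, GRCm38 chromosome 14, 65968483 to 65981547, plus strand). Its level was 3.50 and 2.96 in Control replicates 1 and 4, and 4.18, 5.11 and 4.69 in SIGLEC12 replicates 2, 3 and 4. All 3 SIGLEC12 samples lay above both Control samples. The group means were 3.23 ± 0.38 (SD, n = 2) and 4.66 ± 0.47 (SD, n = 3), a log2 fold change of 1.43 (SE 0.33, 95% interval from 0.63 to 2.23, adjusted p of 0.0974 by limma, p of 0.1 by exact permutation, two-sided, the smallest the design allows). After rescaling it was 0.91 (SE 0.36, adjusted p of 0.457 by limma, p of 0.2 by exact permutation), with Control replicate 1 at 3.94 and SIGLEC12 replicate 2 at 4.03. Clu was 1 of the 2 genes that did not have their minimum in Control replicate 1. Its log2 fold change was 1.70 without that sample and 1.16 without Control replicate 4. With rescaling and without Control replicate 1 it remained 1.30 (SE 0.40), the largest of the 8 in that setting.

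Ly6a encodes Sca-1, a lipid-anchored surface protein used to sort fetal-like repair cells and also made by stromal, endothelial and T cells (ENSMUSG00000075602, chromosome 15, 74994877 to 74998031, minus strand). Its level was 4.35 and 5.39 in Control, while SIGLEC12 stood at 5.86, 6.29 and 6.52, without overlap. The means were 4.87 ± 0.73 (SD, n = 2) and 6.22 ± 0.33 (SD, n = 3), a log2 fold change of 1.35 (SE 0.38, 95% interval from 0.44 to 2.26, adjusted p of 0.0974 by limma, p of 0.1 by exact permutation). After rescaling the change was 0.81 (SE 0.32, adjusted p of 0.457 by limma, p of 0.1 by exact permutation), and the groups still did not overlap, at 4.81 and 5.62 against 5.71, 6.15 and 6.23. Without Control replicate 1 the change was 0.83, and without Control replicate 4 it was 1.87. Of the 31-base words in the transcript named for Ly6a, 27.48% also occurred in other genes, among them Ly6c1, Ly6c2, Ly6g and Ly6i, so its reads could be split with these and its level is uncertain. The neighbor Ly6c1 showed the same order of groups, at 0.91 and 2.82 in Control and 3.64, 3.52 and 4.70 in SIGLEC12. Of the other sources of Ly6a, the 6 endothelial markers summed to 1.06 and 1.07 TPM in Control and from 2.33 to 5.22 TPM in SIGLEC12, and the 7 fibroblast markers to 8.83 and 10.7 TPM and from 18.2 to 58.9 TPM. Both lists were highest in SIGLEC12 replicate 2, in which Ly6a was the lowest of the 3 SIGLEC12 samples. The 6 T cell markers summed to at most 1.19 TPM in any sample, all 6 below 1 TPM. The part of these cells in the Ly6a level was not tested.

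F3 encodes tissue factor, the receptor that triggers coagulation and a YAP/TAZ target (ENSMUSG00000028128, chromosome 3, 121723537 to 121735048, plus strand). Its level was 2.18 and 3.46 in Control and 3.77, 3.83 and 4.84 in SIGLEC12. The groups did not overlap, although Control replicate 4 was nearer to the lowest SIGLEC12 sample than to the other Control sample. The log2 fold change was 1.32 (SE 0.48, adjusted p of 0.119 by limma, p of 0.1 by exact permutation). After rescaling it was 0.84 (SE 0.43, adjusted p of 0.475 by limma) and the groups overlapped, as Control replicate 4 at 3.68 lay above SIGLEC12 replicate 2 at 3.63. It was 0.68 without Control replicate 1.

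Plaur encodes the urokinase receptor, which focuses plasminogen activation at the cell surface (ENSMUSG00000046223, chromosome 7, 24462484 to 24475968, plus strand). It had the widest range of the 8 genes, 3.08, from 0.87 in Control replicate 1 to 3.96 in SIGLEC12 replicate 4. Control replicate 4 at 2.70 lay within the SIGLEC12 samples, whose other values were 2.33 and 2.79. The log2 fold change of 1.23 (SE 0.65, adjusted p of 0.210 by limma, p of 0.4 by exact permutation) was smaller than the gap of 1.83 between the Control samples. It was 0.32 without Control replicate 1, 2.15 without Control replicate 4 (SE 0.61, adjusted p of 0.0596 by limma, no overlap) and 0.84 after rescaling. Neutrophils and macrophages also carry this receptor. The 9 neutrophil markers, most of whose sum was Ltf, summed to 214.1 and 211.7 TPM in Control and to 200.7, 154.0 and 27.2 TPM in SIGLEC12 replicates 2, 3 and 4. Within that list S100a8 and S100a9 were highest in SIGLEC12 replicate 3, at 4.24 and 3.50. Outside it Ly6g, a Ly6 family gene used to mark neutrophils and 1 of those that share sequence with Ly6a, was highest in SIGLEC12 replicate 4 at 5.52, as Plaur was, and lowest in Control replicate 1 at 2.41. The 9 macrophage markers summed to 13.9 and 8.07 TPM in Control and to 27.3, 33.1 and 10.9 TPM in SIGLEC12. The part of these cells in the Plaur level was not tested.

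Of the 3 annexins, the groups overlapped for each. Anxa1, which binds formyl peptide receptors and dampens inflammation (ENSMUSG00000024659, chromosome 19, 20373428 to 20390944, minus strand), stood at 6.23 in Control replicate 1 and between 7.28 and 7.63 in the other 4 samples. Control replicate 4, at 7.60, was above 2 of the 3 SIGLEC12 samples. Its log2 fold change was 0.53 (SE 0.42, 95% interval from -0.47 to 1.54, adjusted p of 0.365 by limma), and it was -0.019 after rescaling and -0.15 without Control replicate 1. Anxa3 (ENSMUSG00000029484, chromosome 5, 96793339 to 96845966, plus strand) measured 2.80 and 4.27 in the Control tumors and 3.92, 4.21 and 4.67 in the SIGLEC12 tumors. It too was lowest in Control replicate 1, and Control replicate 4 was above 2 of the 3 SIGLEC12 samples. Its log2 fold change was 0.74 (SE 0.46, 95% interval from -0.37 to 1.84, adjusted p of 0.271 by limma), 0.23 after rescaling and 0.0027 without Control replicate 1.

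Anxa8 (ENSMUSG00000021950, chromosome 14, 34085981 to 34100571, plus strand), an annexin also abundant in stratified squamous epithelium, had the narrowest range of the 8 genes, 0.79. It was at 5.69 and 5.40 in Control and at 5.70, 5.65 and 6.19 in SIGLEC12. In Control replicate 1, where the other annexins were lowest and the squamous markers highest, Anxa8 lay level with SIGLEC12 replicates 2 and 3. Its log2 fold change was 0.30 (SE 0.27, 95% interval from -0.35 to 0.95, adjusted p of 0.420 by limma) and turned to -0.24 after rescaling, where the interval ran from -0.88 to 0.40. The squamous sum was 3232 TPM in Control replicate 1 and 799.8 TPM in SIGLEC12 replicate 4, where Anxa8 was highest. The part of squamous epithelium in the Anxa8 level was not tested.

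Msln encodes mesothelin, a lipid-anchored surface protein of mesothelium and of many carcinomas (ENSMUSG00000063011, chromosome 17, 25748613 to 25754378, minus strand). It was at 0.01 and 0.29 TPM in Control and at 0.31, 1.41 and 1.17 TPM in SIGLEC12, so that it reached 1 TPM in 2 samples, SIGLEC12 replicates 3 and 4. Control replicate 4 and SIGLEC12 replicate 2 were almost level. On the log2 scale the change was 0.74 (SE 0.31, adjusted p of 0.149 by limma, p of 0.2 by exact permutation). After rescaling it was 0.62 (SE 0.31, adjusted p of 0.466 by limma) and the groups overlapped. Without rescaling and with a pseudocount of 0.1 in place of 1 it was 2.17 (SE 1.07), so its size rests on that choice. The 6 mesothelial markers summed to 2.28 TPM in Control replicate 1, and to at most 0.43 TPM in the other 4. Of the 6, 5 were below 1 TPM in every sample, and Upk3b did not exceed 0.03 on the log2 scale. The part of mesothelium in the Msln level was not tested.

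**Figure D3:**
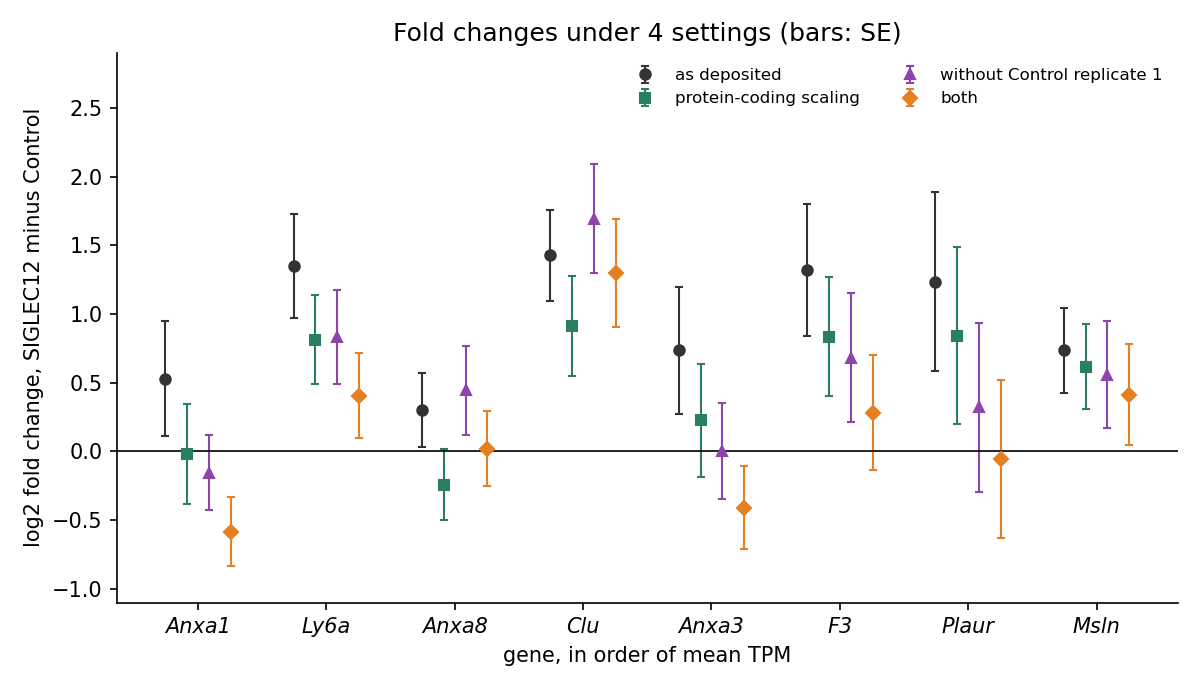
Log2 fold change of SIGLEC12 over Control (y axis, points) with its SE (bars) for each of the 8 genes (x axis), as deposited, after scaling to the protein-coding total, without Control replicate 1, and with both. Clu kept a log2 fold change of at least 0.91 in the 4 settings, whereas Anxa1 lay between -0.58 and 0.53. Under columnar scaling, which is not shown, Clu changed by 0.23 (SE 0.61).

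Ratios between members within a sample do not depend on how the sample is scaled. All 28 pairs were compared by an exact permutation test, whose smallest p is 0.1, and after adjustment over the pairs no p was below 0.4. For 10 of the 28 pairs the groups did not overlap, but pairs share genes and the share over other gene pairs was not computed. Among the 10 were the pairs of Msln with Anxa1, Anxa3 and Plaur, and Msln was at 0.01 TPM in Control replicate 1. Clu against Anxa8 gave log2 TPM ratios of -2.30 and -2.60 in Control and of -1.58, -0.56 and -1.54 in SIGLEC12, each nearer to that of Anxa8 (difference 1.23, p of 0.1 by exact permutation). Ly6a against Anxa8 gave log2 ratios of -1.38 and -0.02 in Control and 0.16, 0.64 and 0.33 in SIGLEC12 (difference 1.08, p of 0.1 by exact permutation). Ly6a was also higher relative to Anxa3 in each SIGLEC12 sample, at 2.01, 2.13 and 1.88 against 1.70 and 1.16 (difference 0.58, p of 0.1 by exact permutation). Between Clu and Ly6a the groups overlapped, with a difference of -0.15 in the ratio of Ly6a to Clu (p of 1 by exact permutation), and between Plaur and F3 the difference was 0.23 (p of 0.7 by exact permutation).

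**Figure D4:**
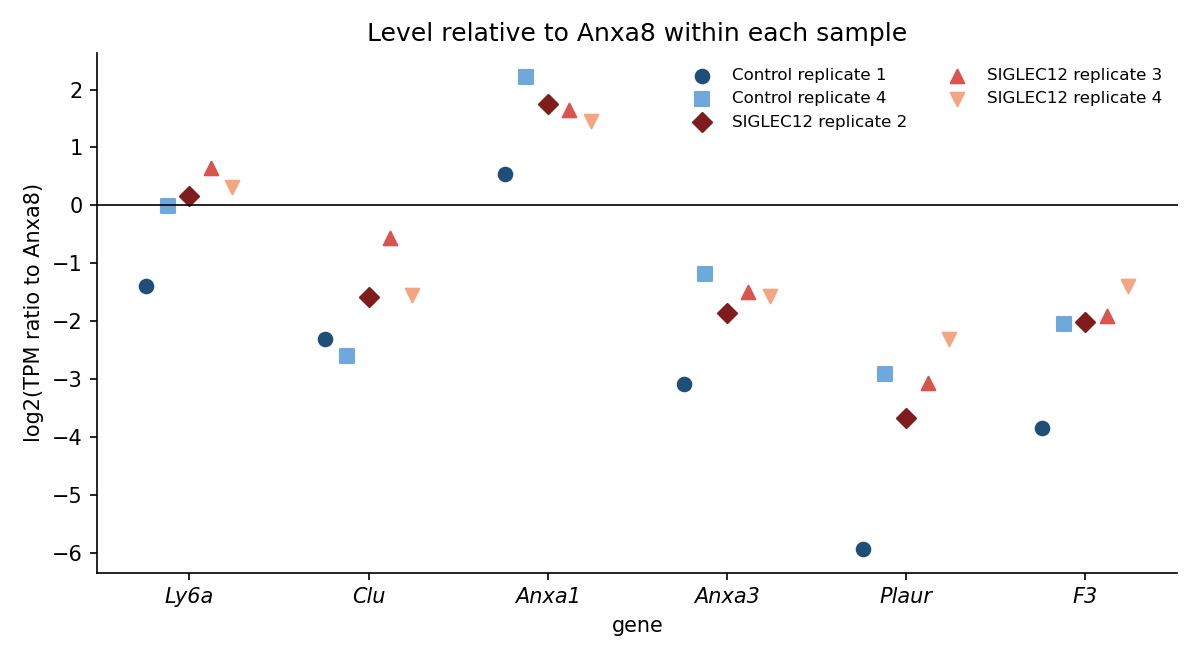
Log2 ratio of the TPM of 6 genes to that of Anxa8 (y axis) within each of the 5 samples (points). For Ly6a, Clu and F3 the 3 SIGLEC12 samples lay above both Control samples, and for Anxa1, Anxa3 and Plaur Control replicate 4 lay among them or above.

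The summed columnar markers were higher in each SIGLEC12 sample than in both Control samples, and lowest in Control replicate 1. Clu and Anxa8, by contrast, were lowest in Control replicate 4. Of the 11 columnar markers tested, 6 passed the unadjusted threshold as higher in SIGLEC12, against 3.97% of all genes. The median log2 fold change over the 11 was 1.29. After rescaling to the protein-coding total 0 passed as higher, against 0.368% of all genes, and the median was 0.75. Without Control replicate 1 the median was 0.51. Relative to a common columnar total, the groups overlapped for 5 of the 8 genes, Ly6a changed by 0.12 (SE 0.68), Clu by 0.23 (SE 0.61) and F3 by 0.20 (SE 0.58), and Anxa8 by -0.95 (SE 0.69). Under that scaling 3 of the 8 (Anxa1, Anxa3 and Anxa8) were lower in each SIGLEC12 sample than in both Control samples, against 33.2% of all genes, and 0 were higher, against 0.842%. The median over all genes tested was -0.53.

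Other genes of the fetal-like and repair state, from a list of 21, were mixed. Of the 20 tested, 4 passed the unadjusted threshold as higher in SIGLEC12 and 0 as lower, against 3.97% and 0.445% of all genes. The median log2 fold change of the 20 was 0.88 as deposited and 0.35 after rescaling. The 4 were S100a6, a calcium-binding protein (1.59, SE 0.48), Il1rn, the interleukin-1 receptor antagonist (1.19, SE 0.36), Basp1 (1.13, SE 0.41) and the tight junction protein Cldn4 (1.06, SE 0.39). After rescaling they changed by 1.04, 0.66, 0.85 and 0.54, and 0 of the list passed, against 0.368% of all genes as higher and 1.37% as lower. S100a6 was the most abundant of the list, reaching 6.51 and 8.09 in the Control tumors, below the 8.61, 8.85 and 9.20 of the SIGLEC12 tumors. Sprr1a, next in abundance and a cornified envelope gene, overlapped between the groups (log2 fold change -0.44, SE 0.84). Ly6e, next after Sprr1a, had a log2 fold change of 0.92 (SE 0.28), below 2-fold.

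Of the 20 YAP/TAZ targets in the table other than F3, 15 were tested. The unadjusted threshold was passed as higher by 1 and as lower by 0, against 3.97% and 0.445% of all genes. The 1 was Nt5e, the ecto-5'-nucleotidase CD73 (1.10, SE 0.34, and 0.66 after rescaling). The median log2 fold change of the 15 was 0.22 as deposited and -0.15 after rescaling, beside medians of 0.38 and 0.01 over all genes tested. The groups did not overlap, with SIGLEC12 higher, for 4 of the 15 and lower for 0, against 54.1% and 1.67% of all genes. After rescaling this held for 1 as higher and 1 as lower, against 15.6% and 16.8%. The classical targets Ctgf and Cyr61, both matricellular proteins, were higher in each SIGLEC12 sample as deposited but by less than 2-fold. Ctgf was at 0.75 and 0.83 in Control and at 1.60, 1.43 and 1.86 in SIGLEC12 (0.84, SE 0.18, adjusted p of 0.0974 by limma, and 0.55 after rescaling), and Cyr61 had a log2 fold change of 0.64 (SE 0.32, and 0.38 after rescaling). Igfbp3 and Myof, which with Nt5e were the most abundant of the list, changed by 0.22 (SE 0.55) and 0.19 (SE 0.30), and both changed sign after rescaling, to -0.26 and -0.29. Against 3.97% of all genes as higher and 0.445% as lower, 0 of the 14 genes of the Hippo pathway itself, all tested, passed. Their median was 0.31, and Yap1 was at 2.40 and 2.51 in Control and at 2.86, 2.69 and 2.87 in SIGLEC12 (log2 fold change 0.35, SE 0.17, and -0.11 after rescaling).

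Of 8 tested annexins and annexin partners outside the 8 genes, 1 passed as higher, against 3.97% of all genes. It was S100a10, the partner of Anxa2, at 4.79 and 6.24 in Control and 6.50, 6.78 and 7.40 in SIGLEC12 (1.38, SE 0.49, and 0.83 after rescaling). Anxa2 itself had a log2 fold change of 0.92 (SE 0.36) and S100a11 of 0.72 (SE 0.29), both below 2-fold, and the median of the 8 was 0.83 as deposited and 0.36 after rescaling. In the Ly6/uPAR family, 1 of 8 tested genes passed as higher, Ly6c1 (2.09, SE 0.61), against 3.97% of all genes. Ly6c1 passed after rescaling as well (1.68), against 0.368% of all genes, and shares sequence with Ly6a as described above. Lypd8, the most abundant of that family and a colonocyte protein that keeps bacteria from the mucosa, changed by 1.14 (SE 0.52) with overlapping groups, and Ly6d, found in stratified epithelium, by -0.47 (SE 0.55).

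Among ligands, inhibitors and partners of the urokinase receptor and tissue factor, 8 of 14 were tested and 0 passed as deposited. Over all genes 3.97% passed as higher and 0.445% as lower. Serpinb2, an inhibitor of urokinase, was lower in each SIGLEC12 sample, at no more than 2.21 against 2.63 and 2.30. Its log2 fold change was -0.65 (SE 0.25). At -1.09 after rescaling it was the 1 gene of this list past the unadjusted threshold there, where 1.37% of all genes passed as lower. Plat, the tissue plasminogen activator, changed by 1.18 (SE 0.57) and F2rl1, a protease-activated receptor, by 0.78 (SE 0.27). Of 7 receptors and partners of Anxa1, Msln and Clu, 1 was tested, Lrp8 (0.10, SE 0.25), and the other 6, among them the formyl peptide receptors Fpr1 and Fpr2 and the mesothelin partner Muc16, were below 1 TPM in every sample.

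Of 9 homeostatic crypt stem cell genes tested, 2 passed as higher and 0 as lower, against 3.97% and 0.445% of all genes. The 2 were Slc12a2, a chloride transporter of crypt cells (1.35, SE 0.41), and Smoc2 (1.02, SE 0.39). The median of the 9 was 0.64 as deposited and 0.28 after rescaling. That median was 0.018 relative to a common columnar total, and -0.095 after rescaling without Control replicate 1, where the median of the 8 members was 0.15. Lgr5, the defining receptor of these cells, was lowest in Control replicate 1 (0.15) and highest in Control replicate 4 (1.68), with the SIGLEC12 samples from 1.10 to 1.47 (log2 fold change 0.41, SE 0.43). Axin2, a Wnt feedback gene, changed by 0.95 (SE 0.48) and Cdca7 by 0.62 (SE 0.23).

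**Figure D5:**
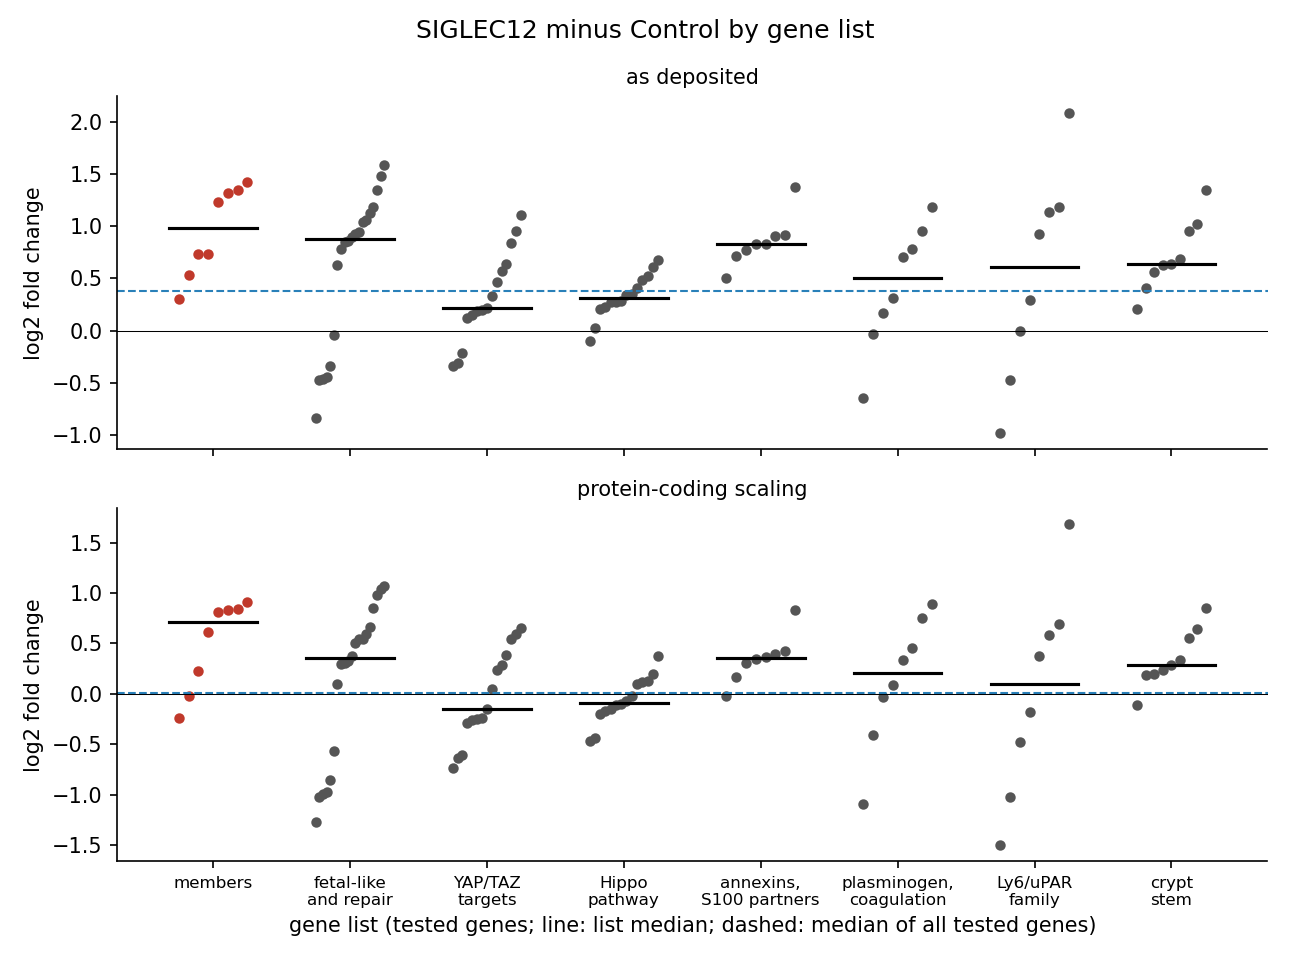
Log2 fold change of SIGLEC12 over Control (y axis) for each tested gene (points) of the 8 members and 7 related lists (x axis), as deposited (top) and after scaling to the protein-coding total (bottom), with list medians as black lines and the median of all tested genes dashed. The median of the 8 members was 0.99 and then 0.72, that of the YAP/TAZ targets 0.22 and then -0.15.

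For each member, the protein-coding genes closest in shape were found by the root mean square difference of log2 levels around their mean over the 5 samples, among 8724 genes outside the 8. The closest to Ly6a were Tspo (0.07), Sri and Tes (both 0.09), and to F3 the laminin chain gene Lamb3 (0.11), Lgals3 (0.11) and the intestinal cadherin Cdh17 (0.12). Anxa1 was nearest to Eps8l3 (0.05), a gene of the epithelial brush border, and Anxa3 to Sytl2 (0.07) and Socs3 (0.09). Anxa8 was nearest to Degs1 (0.03) and Msln to the histone gene Hist1h4i (0.06). Clu had no gene as near as these, since its closest were the ribosomal protein gene Rps14 (0.20), Selenof (0.24) and Rps27 (0.24). Plaur was nearest to Pde9a (0.15) and next to Ly6g (0.18). With 5 samples and this many genes searched, these distances are a description.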

How the data were processed

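RNA-Seq of colon tumors of 2 Control and 3 SIGLEC12 mice was used, grouped by the sample titles. The authors deposited log2(TPM + 1) values for 52143 mouse genes. In each column, TPM recovered from them summed to 999999 to 1000001, and 0 value columns were left unmapped. Per the submitters' processing notes, kallisto 0.45.0 and GRCm38 were used. The study's methods name 3 technical replicate libraries per sample, with no word on how columns were made from them. Since TPM carries no depth, counting intervals are not given. Biotypes and coordinates came from GENCODE M21, which held 98.45% of the gene identifiers.

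Genes with at least 1 TPM in at least 2 samples were tested by limma 3.58.1 in R 4.3.3 on the log2 scale with a mean-variance trend and Benjamini-Hochberg adjustment over all 10338. The pseudocount of 1 makes fold changes of weakly expressed genes too small. Single values were tested by the exact permutation test over the 10 assignments of 5 samples to the groups. Scaling set each sample to the mean protein-coding TPM total. Shared 31-base words were counted over GENCODE transcripts. All 8 members are named, and from each related list the 3 most abundant tested genes and up to 5 of those with the greatest change at an unadjusted p of at most 0.05, 2-fold and without overlap. Other genes named were chosen after their values were seen, among them Ctgf, Cyr61, Ly6g, Upk3b, Lgr5 and the undetected receptors. The members and lists were chosen with earlier results of these data known. Protein sequences were not used here.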

Additional observations from a re-analysis of the deposited data

How the results depend on the processing

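No paired analysis was possible because replicate number 4 alone occurs in both groups. The setting that joins protein-coding scaling with leaving out Control replicate 1 was chosen after seeing the data. Where 1 Control sample is left, it is assumed to vary like the SIGLEC12 samples. Over all genes, 0 were higher and 0 lower at the adjusted threshold, but 16 and 326 under columnar scaling, and with any single sample omitted from 0 to 962 higher and from 0 to 97 lower, the upper values without Control replicate 4. At the unadjusted threshold the counts were 410 higher and 46 lower. They were 1087 higher with a pseudocount of 0.1, 19 lower with the stricter filter of 5 TPM, 38 higher and 142 lower under protein-coding scaling, 56 and 124 under median-ratio scaling, 36 and 1059 under columnar scaling, and 27 and 223 under protein-coding scaling without Control replicate 1. The share of higher genes at this threshold thus depends on the scaling. Omitting single samples gave 143 higher genes without Control replicate 1, 1366 without Control replicate 4, and between 51 and 146 lower genes.

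Each of the 5 samples was left out in turn. Among the 8 genes, the fold changes of Ly6a, Anxa1, Anxa3, F3 and Plaur were largest without Control replicate 4. The median log2 fold change over all genes tested was then 0.52, against 0.38 with all samples. Over these 5 omissions, the log2 fold change ran from 0.83 to 1.87 for Ly6a, from -0.15 to 1.21 for Anxa1, from 0.0027 to 1.47 for Anxa3, from 0.68 to 1.96 for F3, from 0.32 to 2.15 for Plaur, from 0.56 to 1.01 for Msln, from 1.16 to 1.70 for Clu and from 0.13 to 0.45 for Anxa8. With a pseudocount of 0.1 Msln was at 2.17 in place of 0.74. Anxa1 changed sign under protein-coding scaling (-0.019), under columnar scaling (-0.73), without Control replicate 1 (-0.15) and with both that scaling and that omission (-0.58). Anxa3 did so under columnar scaling (-0.43) and with both (-0.41), Anxa8 under protein-coding (-0.24), median-ratio (-0.22) and columnar scaling (-0.95), and Plaur with both (-0.054). Clu, Ly6a, F3 and Msln kept their sign in each setting that tested them, and Msln did not reach the 5 TPM filter. The count of members past the unadjusted threshold, 3, was 0 under each of the 3 scalings, 1 with both, and from 1 (without Control replicate 1) to 6 (without Control replicate 4) with single samples omitted. The count without overlap, 4 higher and 0 lower, was 2 higher under protein-coding and median-ratio scaling, 0 higher and 3 lower under columnar scaling, 2 and 2 with both, and from 4 to 7 higher and 0 lower with single samples omitted. Of the related genes, 9 higher and 0 lower passed the unadjusted threshold as deposited. It was 1 and 1 under protein-coding scaling, 2 and 1 under median-ratio scaling, 1 and 15 under columnar scaling, 0 higher with both, and from 0 higher (without Control replicate 1) to 33 higher and 3 lower (without Control replicate 4) with single samples omitted, the lower count otherwise being 0. The shares of all genes moved with the scaling too, so these counts alone do not set the members apart. The unadjusted threshold was passed as higher by 3.97% as deposited and 0.368% under protein-coding scaling. Groups did not overlap, with SIGLEC12 higher, for 54.1% as deposited, 15.6% under protein-coding scaling and 0.842% under columnar scaling. With SIGLEC12 lower the shares were 1.67%, 16.8% and 33.2%. The cause of these moves was not tested. With 2 Control samples the exact test cannot go below 0.1, and the unknown depth limits Msln most.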
